A study of Homo sapiens with 6 samples.

Results

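The genes described here encode 8 large subunits of the SWI/SNF chromatin remodellers: ARID1A, ARID1B, ARID2, SMARCA2, SMARCA4, SMARCC1, SMARCC2 and PBRM1. Their clusters are the rows of both deposited cluster lists, repeats dropped, whose gene field equals one of these symbols, and no measured value entered that rule. The lists held 1172 such clusters of 366429 with wild-type Rbfox1 (0.320%) and 542 of 188027 with Rbfox1 F125A (0.288%). A cluster is a place in an intron of a protein-coding gene, on hg38, where sequenced RNA piled up. All 8 genes had clusters in both lists, all on the gene's own strand and within its annotated bounds.

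The RNA came from complexes of FLAG-tagged Rbfox1 with LASR, the large assembly of splicing regulators, purified from HEK293 Flp-In Rbfox2 KO#7, embryonic kidney cells carrying 1 integration site for a transgene, here clone 7 of an Rbfox2 knockout. RNA that nuclease had spared was sequenced from 3 libraries with Rbfox1(WT), 2 with Rbfox1(F125A), in which a phenylalanine of the RNA recognition motif is replaced, and 1 control library without a transgene. All libraries share the Rbfox2 knockout and come from that 1 clone, so the tagged Rbfox1 was supplied by the transgene in both groups. Each Rbfox1 group has 1 list, so no value below has a replicate error, every interval covers counting error only, and no p-value is given for the 2 proteins. Read depth is unknown, because the lists give places and no read counts. The control was not analysed here, and the background it measures was not subtracted here. Neighbouring clusters of a gene are not independent, so the true uncertainty is larger than the intervals. Of 4 genes taken as marks of HEK293 cells, PAX2, VIM and CDH2 had clusters and NEFM had none, and the liver genes ALB, APOB and TTR had none. Of the other marks looked up, MBP of glia had 35 WT and 21 F125A clusters, more than PAX2 (13 and 8) or VIM (5 and 4), PTPRC of blood had 1 WT cluster, TTN of muscle 1 in each list, and CD3E, HBB, MYH7, RYR1 and GFAP had none.

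SWI/SNF complexes use the energy of ATP to slide or evict nucleosomes. Each complex holds a single ATPase, SMARCA4 (BRG1) or its paralogue SMARCA2 (BRM), on a core scaffolded by SMARCC1 (BAF155) and SMARCC2 (BAF170). ARID1A or ARID1B, which exclude each other, mark the BAF form, whereas ARID2 and PBRM1, a protein with many bromodomains, mark the PBAF form. Rbfox1 reads the pentamer GCAUG in introns near regulated exons, and the LASR proteins that travel with it bring further RNA contacts, among them HNRNPH1, which binds runs of G, and HNRNPC, which binds runs of U.

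ARID1B carried close to as many clusters as the other 7 genes together. It had 561 WT and 246 F125A clusters, 47.9% of all WT and 45.4% of all F125A clusters of the 8 genes, and ranked 15 among all genes by WT clusters and 29 by F125A clusters. ARID2 followed with 177 WT and 79 F125A clusters, SMARCC1 with 155 and 85, and ARID1A with 95 and 53. SMARCA2 had 60 and 25, PBRM1 60 and 20, SMARCA4 47 and 26, and SMARCC2 17 and 8. ARID1B spans 434.8 kb and SMARCC2 27.1 kb, so the genes were next compared per length.

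Per 100 kb of annotated gene, the ARID subunits were the most densely covered. ARID1B had 129.0 WT clusters per 100 kb (exact Poisson 95% interval 118.6 to 140.2), ARID1A 110.4 (89.3 to 134.9) and ARID2 99.3 (85.2 to 115.0). SMARCC1 (78.8, 66.9 to 92.3) and SMARCC2 (62.7, 36.5 to 100.3) came next, then SMARCA4 (46.4, 34.1 to 61.7), PBRM1 (42.7, 32.6 to 55.0) and SMARCA2 (33.7, 25.7 to 43.3). Of neighbours in this order, the intervals of all 7 pairs overlap. Those of ARID1B and ARID2 do not, nor do those of SMARCC1 and SMARCA4. Over the 5626 genes with 20 or more clusters summed over the lists, called tested genes below, the median was 58.0 WT clusters per 100 kb, with quartiles of 35.5 and 89.5. ARID1B, ARID1A and ARID2 thus lay above the upper quartile and SMARCA2 below the lower one.

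The F125A list gave a similar order with ARID1A first. ARID1A had 61.6 F125A clusters per 100 kb (46.1 to 80.5) and ARID1B 56.6 (49.7 to 64.1), whose intervals overlap. ARID2 had 44.3 (35.1 to 55.2), SMARCC1 43.2 (34.5 to 53.5), SMARCC2 29.5 (12.7 to 58.1) and SMARCA4 25.7 (16.8 to 37.6). PBRM1 had 14.2 (8.69 to 22.0) and SMARCA2 14.0 (9.08 to 20.7), both below the lower quartile of tested genes, 15.7, where the median was 29.7. For the paralogues of each slot in the complex, ARID1B and ARID1A, SMARCC1 and SMARCC2, and SMARCA4 and SMARCA2, the intervals of each pair overlap in both lists.

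**Figure D1:**
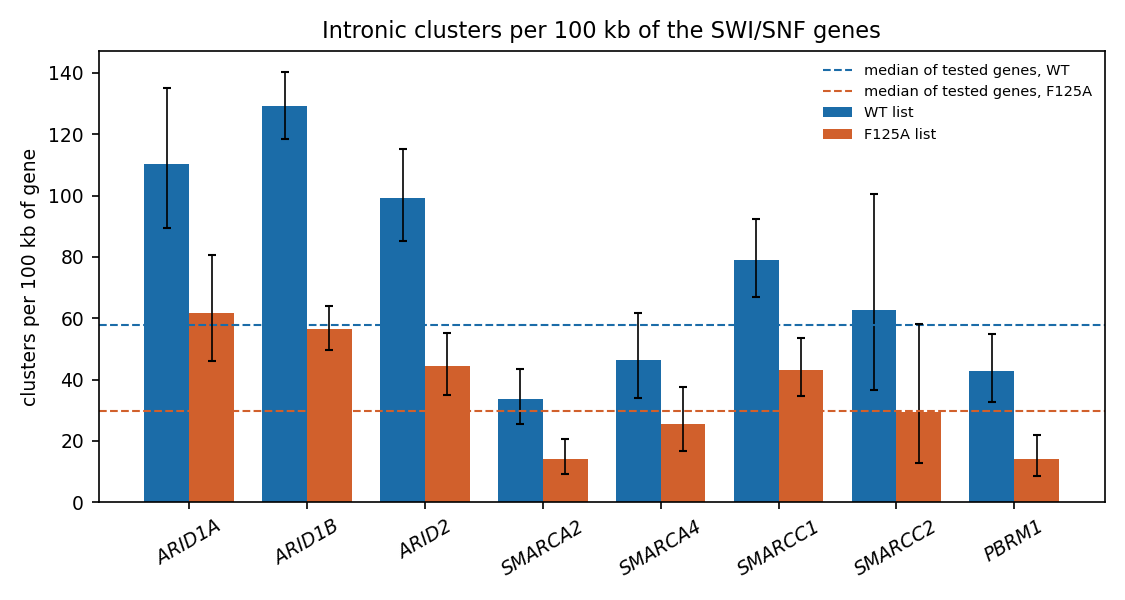
Clusters per 100 kb of annotated gene for the 8 genes, in the WT list (blue) and the F125A list (orange), with exact Poisson 95% intervals for counting error, and the median of the 5626 tested genes in each list as dashed lines. ARID1B, ARID1A, ARID2 and SMARCC1 stand above both medians, and SMARCA2, SMARCA4 and PBRM1 below both.

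Among genes of similar length, ARID1B stood near the top. Tested genes were divided into 20 bins of length, and in its bin of 282 genes, 407 to 2299 kb long, ARID1B lay above 99.6% of genes in WT and 98.2% in F125A clusters per 100 kb, where the bin medians were 26.6 and 9.40. ARID2 (93.6% and 91.8% of its bin) and SMARCC1 (89.0% and 91.1%) also ranked high among genes of 169 to 208 kb, and ARID1A lay above 85.5% and 86.5% of genes of its length. SMARCA2, in the same length bin as ARID2 and SMARCC1, lay above 43.1% in both lists. SMARCA4 (49.1% and 56.6%) and PBRM1 (45.6% and 35.9%) were near the middle, and SMARCC2 was low among tested short genes (21.4% and 9.25%). The minimum of 20 clusters leaves out short genes with sparse clusters, and SMARCC2, with 17 and 8, stood near that floor. Its density intervals, 36.5 to 100.3 with WT and 12.7 to 58.1 with F125A, held the bin medians of 81.2 and 53.0. These percentiles describe rank only. The genes nearest to ARID1B in both densities, by Euclidean distance of the log2 values over the 2 lists, were CMC2 (distance 0.01), RBM33 (0.04) and COPA (0.05), all shorter, at 40.4, 136.8 and 54.7 kb.

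Relative to the whole lists, the 8 genes lay between -0.13 and 0.58 on a log2 scale of WT over F125A clusters. The ratio used here is log2 of WT over F125A clusters, each plus 1, less 0.96, the same measure for the list totals. It is 0 when a gene has 1.95 WT clusters for each F125A cluster. PBRM1 had the highest ratio, 3.00 WT clusters per F125A cluster or 0.58 on the log2 scale (exact binomial interval -0.13 to 1.43), above 90.2% of tested genes. SMARCA2 lay at 0.27 (-0.39 to 1.04), ARID1B at 0.22 (0.01 to 0.45), ARID2 at 0.19 (-0.19 to 0.60) and SMARCC2 at 0.04 (-1.16 to 1.55). SMARCC1 lay at -0.10 (-0.49 to 0.30), and ARID1A (-0.62 to 0.39) and SMARCA4 (-0.83 to 0.64) both at -0.13.

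None of the 8 reached a 2-fold difference in either direction, a rule that 4.5% of the tested genes met (2.51% toward WT and 1.99% toward F125A). The counting interval of ARID1B alone lay above 0, as it did for 5.85% of tested genes, and none of the 8 intervals lay below 0, as 4.37% did, so that 1 of 8 left out 0 against 10.2% of tested genes in either direction. With 5 genes above 0 and 3 below, the median of the 8 was 0.11, against -0.04 for all tested genes, whose quartiles were -0.36 and 0.26. The median turned to -0.08, with 3 above and 5 below, once the median ratio of genes of similar length was subtracted. That median was 0.42 for the length bin of ARID1B, which then lay at -0.20. The bin runs from 407 to 2299 kb and ARID1B, at 434.8 kb, is near its short end, so the subtraction draws on longer genes. ARID2 then lay at -0.01, SMARCC1 at -0.30, SMARCA4 at -0.17 and ARID1A at -0.15. The intervals above belong to the uncorrected ratios, and that of ARID1B, 0.01 to 0.45, held the 0.42 of its length bin. PBRM1 (0.46), SMARCC2 (0.47) and SMARCA2 (0.07) lay above 0 after that subtraction. Of the 28 pairs among the 8 genes, none had intervals that did not overlap, paralogues and the BAF and PBAF pairs included.

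**Figure D2:**
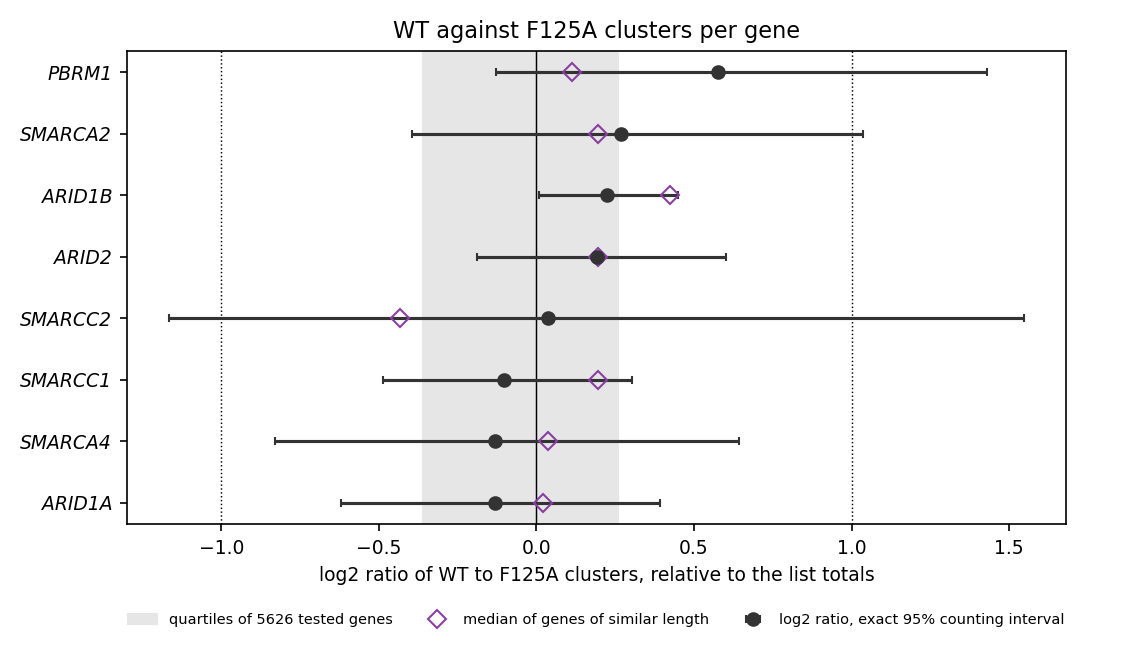
Log2 ratio of WT to F125A clusters relative to the list totals for each gene (points) with exact binomial 95% intervals, the median of genes of similar length (diamonds), the quartiles of 5626 tested genes (grey band) and the 2-fold bounds (dotted lines). All 8 points lie between the 2-fold bounds, from -0.13 to 0.58, and only the interval of ARID1B stays above 0.

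Clusters were not spread evenly along ARID1B (gene ID 57492, chromosome 6, 156776026 to 157210779, plus strand). The gene's length was cut into 10 equal deciles. The fifth decile, singled out after its values were seen, held 115 WT clusters (20.5%) and 74 F125A clusters (30.1%), the most of any decile in both lists. There the log2 ratio was -0.33 (interval -0.76 to 0.11), while the rest of the gene, with 446 WT and 172 F125A clusters, lay at 0.41 (0.16 to 0.67). These intervals do not overlap, but the decile was picked for its count. In the fifth decile 60.0% of WT clusters (exact interval 50.4 to 69.0%) overlapped an F125A cluster, the highest share of the 10 deciles, which otherwise ranged from 25.6% in the ninth (13.0 to 42.1%) to 51.1% in the seventh (35.8 to 66.3%). The intervals of the second (29.7 to 56.8%), the third (24.2 to 55.5%), the sixth (35.3 to 58.5%), the seventh, the eighth (15.3 to 50.8%) and the last (14.3 to 51.8%) overlap that of the fifth. The F125A clusters met a WT cluster about equally often all along the gene, from 90.9% in the ninth decile to 100% in the first, the eighth and the last.

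The densest 10 kb of ARID1B differed between the lists. In the WT list it lay 159.1 kb into the gene (chr6:156935083-156945082) with 42 WT clusters and 14 F125A clusters. In the F125A list it lay 197.0 kb into the gene (chr6:156972993-156982992) with 27 F125A clusters, 4.77 times the gene's mean of 5.66 per 10 kb, and 29 WT clusters. Each window was picked as the densest of its own list, which by itself raises that list's count against the other's. The longest stretch without a WT cluster was 7.86 kb and without an F125A cluster 16.0 kb, and these overlap near the 3' end of the gene.

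ARID1A (gene ID 8289, chromosome 1, 26696015 to 26782104, plus strand) was instead loaded at its start. The first decile held 27 of 95 WT clusters (28.4%, interval 19.6 to 38.6%) and 22 of 53 F125A clusters (41.5%, 28.1 to 55.9%), against 13.9% and 15.7% of all clusters of the lists. The densest 10 kb was the same in both lists, chr1:26697550-26707549, from 1.54 kb after the annotated start, with 30 WT and 24 F125A clusters, or 31.6% and 45.3% of the gene's total.

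The ATPase genes also held larger shares near the start than the lists as a whole, though by less than counting error in SMARCA2. In SMARCA4 the WT interval began at 13.9%, the same as the whole WT list to that digit. With F125A it began at 17.2%, against 15.7% of the whole list. SMARCA4 (gene ID 6597, chromosome 19, 10961030 to 11062273, plus strand) had 12 of 47 WT clusters (25.5%, 13.9 to 40.3%) and 9 of 26 F125A clusters (34.6%, 17.2 to 55.7%) in the first decile, and its densest 10 kb began 0.191 kb from the annotated start in the WT list and 0.181 kb in the F125A list. SMARCA2 (gene ID 6595, chromosome 9, 2015347 to 2193620, plus strand) had 11 of 60 (18.3%, 9.52 to 30.4%) and 8 of 25 (32.0%, 14.9 to 53.5%) there. Its densest 10 kb was near the start in the F125A list (chr9:2017251-2027250, 5 F125A and 6 WT clusters) but far downstream in the WT list (chr9:2158033-2168032, 8 WT clusters and 1 F125A cluster). SMARCA2 also had the longest empty stretch of the 8 genes, 33.5 kb without an F125A cluster and 17.1 kb without a WT cluster. With so few clusters per window these places carry wide counting error.

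SMARCC1, PBRM1 and SMARCC2 were densest in their interior, and ARID2 had dense stretches both near the start and further in. In SMARCC1 (gene ID 6599, chromosome 3, 47585269 to 47781893, minus strand) the first decile held 6.45% of WT (3.14 to 11.5%) and 8.24% of F125A clusters (3.38 to 16.2%), and the seventh decile most, with 32 WT and 21 F125A clusters. Its densest windows, chr3:47653476-47663475 with 24 WT clusters and chr3:47651406-47661405 with 17 F125A clusters, overlap each other. ARID2 (gene ID 196528, chromosome 12, 45729706 to 45908037, plus strand) had most clusters of both lists in the second decile, 31 WT and 16 F125A, followed with WT by the sixth, with 28 and 7. Its densest 10 kb with F125A lay 17.5 kb into the gene (12 F125A and 21 WT clusters) and with WT 95.5 kb into it (24 WT and 6 F125A clusters). With windows of 20 kb its densest places in the WT and F125A lists overlapped, from 10.5 kb into the gene with WT and 11.1 kb with F125A. In PBRM1 (gene ID 55193, chromosome 3, 52545367 to 52685913, minus strand) the densest WT window, 34.9 kb into the gene at chr3:52640975-52650974, had 14 WT clusters and 2 F125A clusters, and the densest F125A window, chr3:52575228-52585227, had 5 F125A and 9 WT clusters. SMARCC2 (gene ID 6601, chromosome 12, 56162359 to 56189483, minus strand) had none of its 17 WT clusters (interval up to 19.5%) and 1 F125A cluster in the first decile, and 13 of its 17 WT clusters lay in a single window of 10 kb, chr12:56165860-56175859. The gene spans only 27.1 kb. That count was 2.07 times its mean of 6.27 per 10 kb, the lowest such multiple of the 8 genes with WT.

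**Figure D3:**
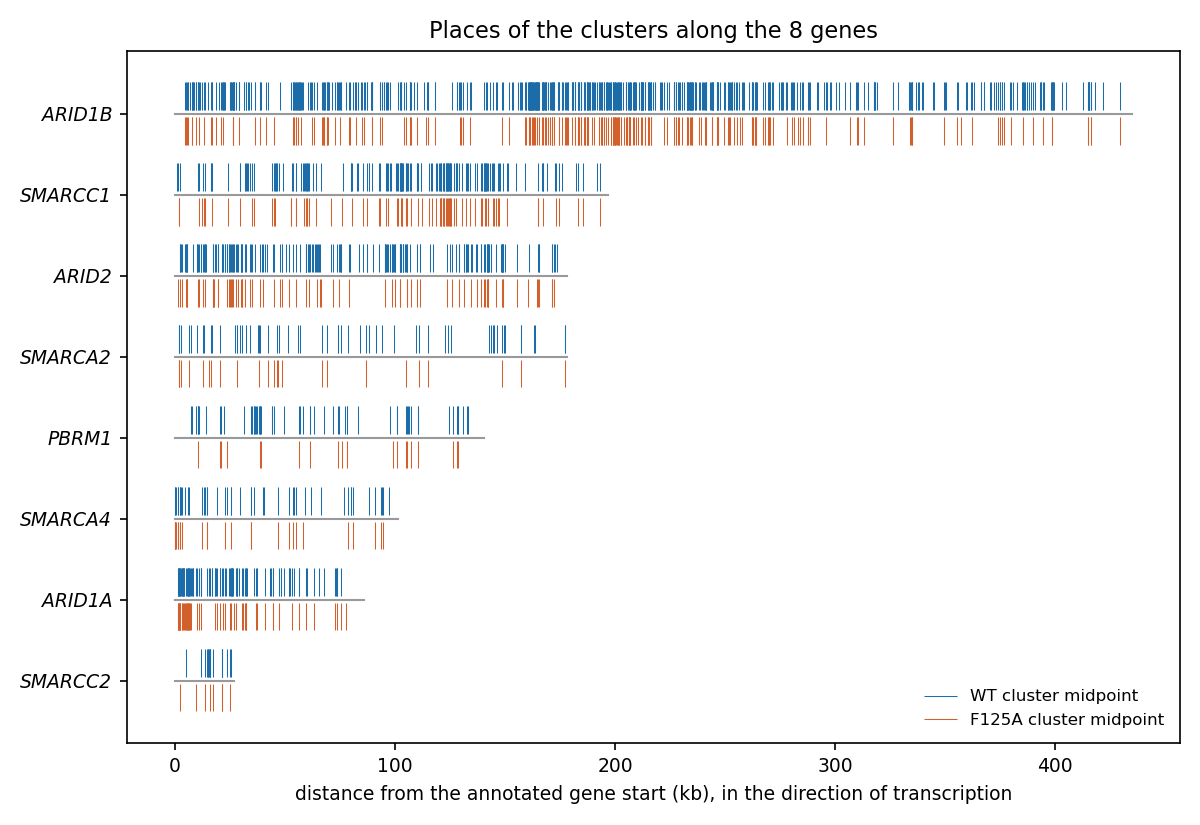
Midpoint of every cluster of the 8 genes by distance from the annotated gene start in kb, in the direction of transcription, with WT clusters in blue above and F125A clusters in orange below each gene line, drawn to the same scale. ARID1B is densest near its middle and ARID1A within 10 kb of its first cluster.

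**Figure D4:**
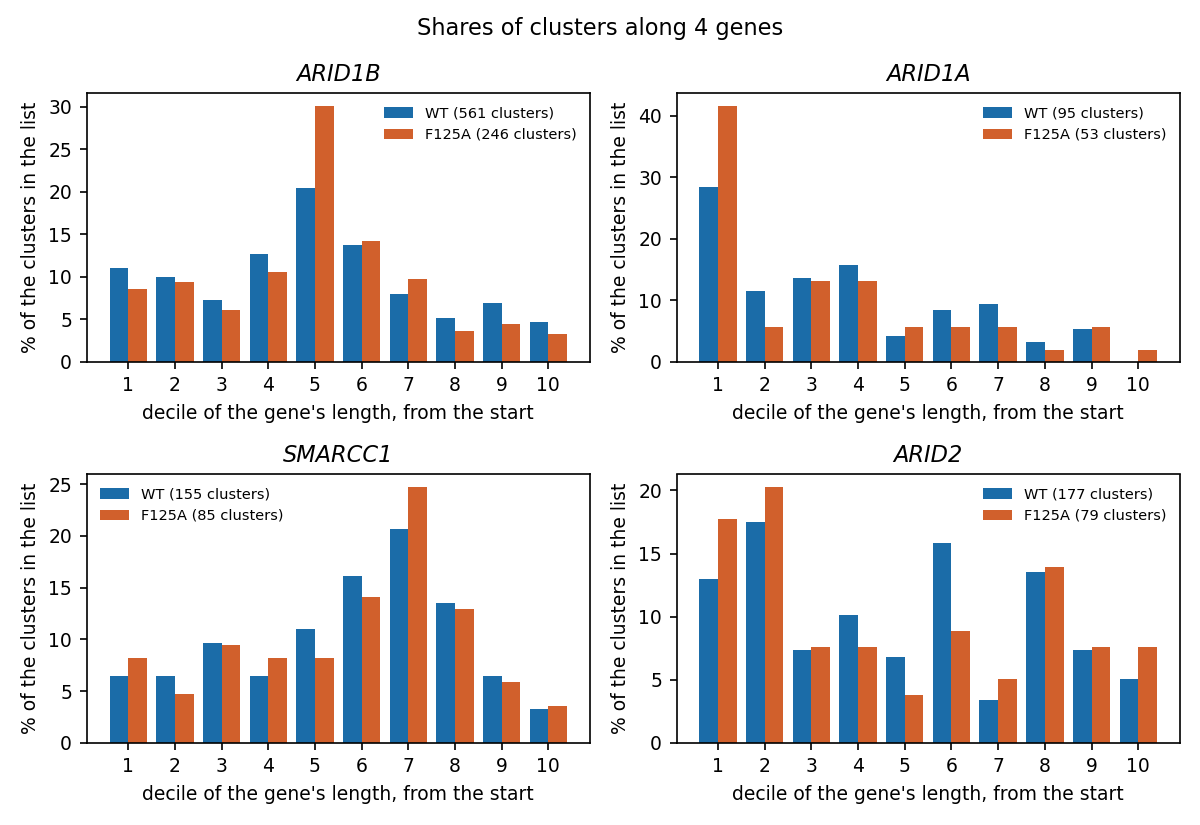
Percent of a gene's clusters in each decile of its length, counted from the start, for ARID1B, ARID1A, SMARCC1 and ARID2 in the WT (blue) and F125A (orange) lists. The F125A share is highest in the fifth decile of ARID1B (30.1%), the first of ARID1A (41.5%), the seventh of SMARCC1 and the second of ARID2.

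Most F125A places in these genes were also WT places. Of the 542 F125A clusters, 492 (90.8%, exact interval 88.0 to 93.1%) shared 1 nt or more with a WT cluster of their strand, against 85.5% of the whole F125A list. ARID1B held 246 of the 542 and so weighs most in this pooled share. ARID1B had the highest share, 232 of 246 (94.3%, 90.6 to 96.9%), followed by ARID2 (92.4%), SMARCA4 (92.3%) and ARID1A (90.6%). SMARCC1 (85.9%) and PBRM1 (85.0%) lay near the share of the whole list, and SMARCA2 (80.0%) and SMARCC2 (5 of 8, 62.5%, interval 24.5 to 91.5%) below it. Intervals were wide for PBRM1, SMARCA2 and SMARCC2. The higher pooled share is thus not a trait of each of the 8 genes. Over tested genes the median share was 85.7%, with quartiles of 78.3 and 91.4%. A gene with more WT clusters leaves more places to overlap, and ARID1B had the most per 100 kb, and the part of that in its share was not tested.

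In the other direction, 509 of 1172 WT clusters (43.4%, 40.6 to 46.3%) overlapped an F125A cluster, against 45.2% of the whole WT list. The share was 51.6% in ARID1A (41.1 to 62.0%), 51.1% in SMARCA4, 48.4% in SMARCC1, 43.1% in ARID1B and 42.9% in ARID2. It was 35.3% in SMARCC2, 33.3% in SMARCA2 (21.7 to 46.7%) and 28.3% in PBRM1 (17 of 60, 17.5 to 41.4%), the gene with the fewest F125A clusters per WT cluster. The interval of PBRM1 lay below the share of the whole list. Over tested genes the median share was 44.9%, with quartiles of 35.5 and 55.9%. How many tested genes have an interval below the list share was not counted, so PBRM1 is not set apart by it. The F125A list holds fewer clusters in all, and whether a WT place without a partner was lost with F125A was not tested.

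**Figure D5:**
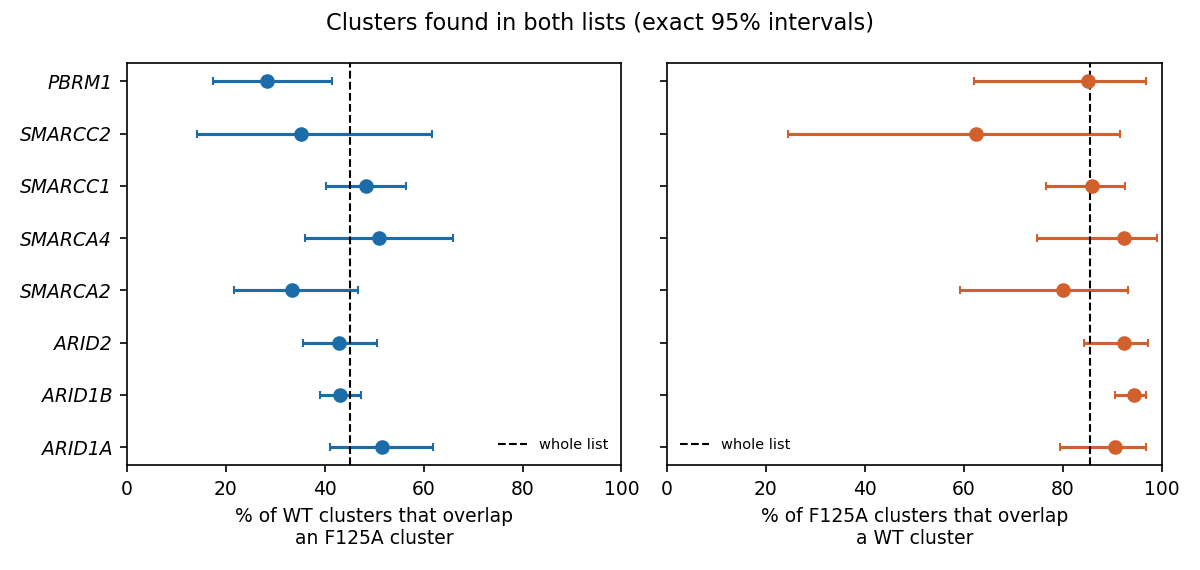
Percent of each gene's WT clusters that overlap an F125A cluster (left) and of its F125A clusters that overlap a WT cluster (right), with exact 95% intervals, and the share of the whole list as a dashed line. F125A shares run from 62.5% in SMARCC2 to 94.3% in ARID1B, and WT shares from 28.3% in PBRM1 to 51.6% in ARID1A.

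Where a cluster of each list had the other as its only partner, the places matched closely but rarely to the base. There were 439 such pairs, of which 8 (1.82%) had both ends in common, 62 the same 5' end and 69 the same 3' end. The F125A cluster lay inside the WT cluster in 172 pairs and around it in 115, and in 144 the pair was staggered. In ARID1B, with 201 pairs, the 5' ends lay a median of 5 nt apart and the 3' ends 4 nt, and the median lengths were 62 nt with WT and 63 nt with F125A. In SMARCA4, with 20 pairs, the ends lay 2 and 1.5 nt apart.

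Clusters were of the usual length, a median of 59 nt with WT (quartiles 47 and 77) and 64 nt with F125A (50 and 79), against 60 and 64 nt over the whole lists. SMARCA4 had the shortest, with medians of 52 and 46 nt, and ARID2 the longest in the F125A list, 71 nt. Pooled over the 8 genes, WT clusters without an F125A partner had a median of 56 nt and those with one 64 nt, though in SMARCA4 the medians were 53 and 47.5 nt. F125A clusters without a partner had a pooled median of 74 nt and those with one 63 nt, but in ARID1B, the gene with the largest share, the medians were 60 and 63 nt and in SMARCC2 both were 65 nt. The longest WT cluster was in ARID2, 183 nt at chr12:45853285-45853467, where F125A had one of 174 nt at chr12:45853266-45853439. The longest with F125A was in PBRM1, 207 nt at chr3:52609872-52610078, and no WT cluster overlapped it.

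Some neighbouring clusters formed runs. Of the gaps between neighbours, 18.8% were under 50 nt in ARID1B with WT and 9.80% with F125A, against 14.4% and 12.2% over all genes of the lists. Of ARID1B's WT clusters 185 (33.0%) stood less than 50 nt from a neighbour, in 80 runs, and 46 neighbouring pairs touched. With F125A 42 clusters (17.1%) did so, in 18 runs. The share in runs was higher than in ARID1B in SMARCC2 with WT, 9 of 17 clusters (52.9%). With F125A it was higher in ARID1A, 16 of 53 (30.2%), and in SMARCA4, 6 of 26 (23.1%). The longest WT run of ARID1B had 5 clusters over 334 nt (chr6:156937061-156937394), inside its densest WT window. In ARID1A the longest runs, of 3 clusters, began at almost the same base in both lists, at chr1:26697787-26697910 with WT and chr1:26697788-26697941 with F125A. SMARCA2 had a single run, of 2 clusters, in each list. With clusters closer than 50 nt merged, ARID1B fell from 129.0 to 104.9 WT clusters per 100 kb.

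The letters under a cluster could be read for 3 places, because RefSeq windows around annotated transcript starts (GRCh38.p14, the hg38 assembly; 250 bases before to 50 after) covered them. These are shown since they are the sequences recovered with the ATPase genes in both lists and with SMARCC1 in the WT list. They are reference sequences, written as DNA 5' to 3' on the sense strand, which reads as the RNA does. For the first pair the cluster is in capitals within its window. The SMARCA2 window is chr9:2021695-2021994 and the SMARCA4 window chr19:10983874-10984173, each upstream of a start inside the gene.
SMARCA2, WT cluster chr9:2021849-2021941: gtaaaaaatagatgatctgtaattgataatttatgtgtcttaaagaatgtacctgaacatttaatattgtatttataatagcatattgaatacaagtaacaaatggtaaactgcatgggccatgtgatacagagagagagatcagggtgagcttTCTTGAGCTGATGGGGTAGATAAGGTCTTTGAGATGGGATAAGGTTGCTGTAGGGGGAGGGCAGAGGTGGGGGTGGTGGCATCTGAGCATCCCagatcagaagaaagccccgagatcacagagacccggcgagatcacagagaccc
SMARCA4, WT cluster chr19:10983975-10984012: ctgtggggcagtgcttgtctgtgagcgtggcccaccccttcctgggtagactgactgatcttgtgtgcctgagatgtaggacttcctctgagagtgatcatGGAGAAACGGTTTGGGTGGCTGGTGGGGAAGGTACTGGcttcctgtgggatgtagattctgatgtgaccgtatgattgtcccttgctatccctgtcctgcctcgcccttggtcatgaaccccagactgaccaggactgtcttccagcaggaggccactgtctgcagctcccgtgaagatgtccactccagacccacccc

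The F125A clusters at the same places were as follows, 44 nt at chr9:2021891-2021934 in SMARCA2 and 39 nt at chr19:10983974-10984012 in SMARCA4.
SMARCA2, F125A cluster: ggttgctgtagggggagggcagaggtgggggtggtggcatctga
SMARCA4, F125A cluster: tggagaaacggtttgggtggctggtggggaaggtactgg

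The F125A cluster of SMARCA2 lay inside the 93-nt WT cluster, whereas in SMARCA4 the 38-nt WT cluster and its partner ended at the same base. The SMARCA2 WT cluster ended 4 nt before the annotated transcript start, and both SMARCA4 clusters 112 nt before theirs. Both places were rich in purines, which made up 63.4% of the SMARCA2 and 71.1% of the SMARCA4 WT cluster. The motif GCATG, the DNA form of the Rbfox pentamer, was in none of these clusters on either strand. It occurred once in the SMARCA2 window on the sense strand, 37 nt before the WT cluster, and not in the SMARCA4 window. Of all 35116 RefSeq windows of 300 nt, 19.6% hold it, and 6.76% do in the stretch of 93 nt at the same offset.

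Runs of G were present in all 4. GGGG, counted at each start so that matches overlap, occurred 5 times in the SMARCA2 WT cluster and 4 times in its F125A cluster. It occurred 1 time in each SMARCA4 cluster, and every match was on the sense strand. In stretches of the same length and offset, 45.9% of all windows hold GGGG for the 93 nt of the SMARCA2 WT cluster and 21.3% for the 38 nt of the SMARCA4 WT cluster, and 75.1% of whole windows do. TTTTT was in none of these clusters on either strand. A match here is a description of the letters and not a binding site.

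The third place, in SMARCC1, lay in the RefSeq window listed for HIGD2AP2, which is annotated on the opposite strand. The WT cluster of SMARCC1 at chr3:47662728-47662789 had no F125A partner, and the window covered the last 42 of its 62 nt (chr3:47662728-47662769).
SMARCC1, WT cluster, last 42 nt: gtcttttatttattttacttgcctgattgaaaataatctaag

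This stretch was 23.8% G and C and 47.6% T, against 55.9% G and C in the SMARCA2 and 60.5% in the SMARCA4 WT cluster. It held none of GCATG, GGGG and TTTTT on either strand. TTTTT occurred 7 times, overlaps counted, in the rest of its window on the sense strand of SMARCC1, the nearest 44 nt after the shown part. Of all RefSeq windows, 24.9% hold it on the strand as listed. These 3 places are a few of 1714 clusters and do not stand for the rest.

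Other subunits of the complexes, from a list of 20, had fewer clusters and a median length of 40.2 kb over the tested ones, against 159.4 kb for the 8 genes. Of the 20, 19 had a cluster and 13 were tested, with 505 WT and 305 F125A clusters together. None was 2-fold or more from 0, 4 lay above and 9 below 0, and the median ratio was -0.13, or 0.06 relative to genes of similar length. BICRA, a subunit of the noncanonical complex, had the most, 88 WT and 57 F125A clusters (-0.34, interval -0.83 to 0.17). SMARCB1, a core subunit lost in rhabdoid tumours, had 36 and 18 (0.00). DPF3, the longest of them at 285.1 kb, had 32 and 12 clusters, or 11.2 WT clusters per 100 kb.

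Remodellers of other families lay on both sides of 0, from -0.49 for HELLS to 0.84 for BAZ2B. Of 27 genes in the ISWI, CHD and INO80 families and among related helicases, 24 were tested, none lay 2-fold or more from 0, 10 lay above and 14 below, and the median was -0.05. The gene with most clusters in each family was CECR2 for ISWI (133 WT and 72 F125A clusters, -0.09), CHD6 for CHD (131 and 71, -0.09), EP400 for INO80 (114 and 56, 0.05) and ATRX for the helicases (398 and 211, -0.05). ATRX, a helicase of heterochromatin, had 141.5 WT clusters per 100 kb, above the 129.0 of ARID1B. These lists were compared by their counts only, and their difference from the 8 genes was not tested.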

How the data were processed

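Per the labels' protocols, RNA from the purified complexes was ligated to a linker, reverse transcribed with primers carrying 4-nt molecular identifiers, and selected for inserts of 20 to 80 nt. The submitters' processing notes name cutadapt, STAR and hg38. Tool versions, the cluster caller, its threshold and how the control entered are not given in the sources used here. Deposited lists, 1 per Rbfox1 group, hold chromosome, start, end, gene, region and strand, per the file headers, so the unit is nt and depth is unknown. Starts, taken as 0-based, are given here 1-based.

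Repeated rows were dropped (7029 WT, 4851 F125A). Gene names were matched to RefSeq GRCh38.p14 by symbol (11720) or by a synonym of a single gene (79). None of the 8 genes had a cluster in the stretch of 5433 rows that is identical in both lists. Positions along genes use cluster midpoints. Exon positions were not used here, so introns are not numbered. Shares carry exact Clopper-Pearson 95% intervals, and densities exact Poisson ones. A gene's interval for the ratio comes from its WT share, without the added 1. The ratio and its interval were tested on simulated counts drawn independently, so dependence between neighbouring clusters was not covered. The overlap rule was tested on planted overlaps. Python 3.11.15, pandas 2.3.3 and SciPy 1.17.1 were used. The 8 genes, the lists and the tests were chosen with earlier results of these data known. Genes named are the 8, the gene with most clusters in each other list, any gene 2-fold or more from 0, and the 3 nearest to ARID1B in both densities. SMARCB1 and DPF3, and the genes under other observations, were chosen after their values were seen. Alternatives covered the added count, merging, the identical stretch, repeats, centring, gene length, the minimum, the overlap rule, the first share and the window.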

Additional observations from a re-analysis of the deposited data

How the results depend on the processing

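The median ratio of the 8 genes ranged from -0.08 with gene length corrected to 0.15 when centred on the median gene, and was 0.01 with 5 added and 0.03 with close clusters merged. No gene of the 8 reached 2-fold under these, leaving out the identical stretch or keeping repeats. For the median ratio, centring, leaving out the identical stretch and keeping repeats were not planned. Its highest planned value was the main one, 0.11. SMARCC2 turned to -0.20 with 5 added and -0.39 with merging. Genes past 2-fold among all tested numbered 253, but 148 with 5 added. A minimum of 10 clusters, which admits more genes to the test, gave 536, so that count has a larger base. The WT share with a partner moved from 43.4% to 48.0% when clusters within 50 nt also counted, and the F125A share ranged from 90.2 to 92.1%. Leaving out the identical stretch was chosen for the shares after seeing the data and left both as they were. Counting the first 20% cannot lower a first share. It gave 40.0% of WT clusters in ARID1A against 26.5% of the whole WT list, where the first 10% gave 28.4% against 13.9%. A 20 kb window put the densest WT places of SMARCA2, with 13 clusters, and of ARID2, with 36, nearer the start. The causes were not tested. No paired analysis was possible because each group has 1 list and no value per library.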

Other observations

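The 50 F125A clusters of the 8 genes without a WT partner lay a median of 404 nt from the nearest WT cluster of the same gene, from 1 to 4400 nt, and 11 of them within 100 nt. In ARID1B the median distance was 178 nt for 14 clusters, and in SMARCC1 329 nt for 12.

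Among the 37 other remodeller genes tested, 4 (10.8%) had a counting interval that left out 0, close to the 10.2% of all tested genes, so the count sets these genes apart from no others. BAZ2B, a bromodomain subunit of ISWI complexes, had 86 clusters with WT and 24 with F125A (ratio 0.84 on the log2 scale, interval 0.21 to 1.60, or 0.53 relative to genes of similar length). PHF10, a PBAF subunit with PHD fingers, had 51 and 44 (-0.75, -1.36 to -0.13), BRD9, a bromodomain subunit of the noncanonical complex, 39 and 34 (-0.77, -1.47 to -0.06), and HELLS, a helicase linked to DNA methylation, 100 and 72 (-0.49, -0.94 to -0.03). Relative to genes of similar length these lay at -0.28, -0.44 and -0.43. PHF10 is 20.6 kb long and had 247.6 WT and 213.6 F125A clusters per 100 kb, more than any of the 8 genes described above.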
